A study of Homo sapiens with 6 samples.

Results

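The solute carrier genes that A549 cells express were followed in this comparison. They were chosen by 2 criteria: a protein-coding gene whose symbol begins with SLC, a family number, the letter A and a member number, and a mean raw count of at least 100 over the 6 libraries. Of 301 genes with such a symbol, 161 in 39 families met the minimum and 136 did not. SLC7A11, SLC11A2, SLC40A1 and SLC39A14, carriers of cystine, iron and other metals, were left out by name. Since the mean count selected the genes, it is given only as a description, and it ran from 101.3 to 36260, with a median of 686. The genes nearest the minimum were SLC2A13 and SLC24A1 just inside it, with mean counts of 101.3 and 111.5, and SLC17A3 and SLC46A3 just outside it, with 99.7 and 97.2.

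A549 cells are an established line of human lung adenocarcinoma. The CELF6-OE cells had been transfected, by means of Lipofectamine, with the plasmid pIRES-hrGFP-1a-CELF6, which expresses the RNA-binding protein CELF6. The Control cells had received the empty plasmid in the same way. RNA of both groups was taken 48 h later, and polyadenylated RNA of 3 biological replicates per group was sequenced in stranded libraries. Both groups thus carry a transfected plasmid, and the labels do not say which share of the cells took it up. The total count on genes lay between 33748328 and 37920700 per library. CELF6 itself had 18646, 20789 and 11571 counts in the 3 CELF6-OE libraries and 0 in each Control library. Markers of epithelial cells were abundant, with a summed FPKM of 3336 to 4083 in CELF6-OE and of 4655 to 5082 in Control. Of the 6, 5 (KRT8, KRT18, KRT19, CDH1 and MUC1, but not EPCAM) were lower in CELF6-OE, against 11.5% of all genes tested. CDH1 was 3.08-fold and MUC1 2.78-fold lower, and these 2 and KRT8 were called whichever library was left out. KRT18 was not called without CELF6-OE replicate 2 or Control replicate 2, and KRT19 was not called when any 1 of the CELF6-OE libraries or Control replicate 2 was left out. The part of these markers in the results below was not tested. The summed FPKM of leukocyte, fibroblast and endothelial markers was at most 4.67, 0.47 and 0.07 in any library, and 5 of 6, 4 of 5 and 4 of 4 of these markers in the table had a mean count under 10. The leukocyte marker over this count was CD14, with a mean count of 251.5. Its mean FPKM of 3.56 lay above those of EPCAM and MUC1.

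Solute carriers are membrane proteins that move ions, sugars, amino acids, vitamins, metals and metabolites across membranes, either down their gradient or coupled to the movement of an ion or another solute. Most work at the plasma membrane, whereas the large SLC25 family works mainly in the inner mitochondrial membrane, and others sit in lysosomes, the Golgi apparatus or vesicles. Members of 1 family share a fold and often, but not always, a kind of substrate. In carcinoma cells, the carriers of glucose, lactate, glutamine and essential amino acids are known for feeding and clearing a fast metabolism.

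The symbol pattern also takes genes that are not transporters. SLC9A3R1 and SLC9A3R2 encode the scaffold proteins NHERF1 and NHERF2, SLC2A4RG encodes a regulator of transcription, and SLC4A1AP, SLC7A6OS and SLC22A18AS are named for a partner or a neighbour. The last 3 were identified as such after their values had been seen. The other 155 members encode carriers or, in the case of SLC3A2, the heavy chain of carriers.

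Levels per length were compared by FPKM, the fragments of a gene scaled by the length of its transcript and by the mapped fragments of the library. The mean FPKM over the 6 libraries ran from 0.298 to 537, with a median of 5.52, and 150 of the 161 genes reached 1 and 45 reached 10. The transcripts were concentrated in few genes, since the 5 highest held 44.1% of the summed FPKM and the 10 highest 56.1%. At the top stood SLC25A5, an ADP/ATP carrier of mitochondria, with 563 ± 16.03 FPKM in CELF6-OE and 512 ± 10.3 in Control (SD, n = 3). It was followed by both chains of the carrier of large neutral amino acids, SLC3A2 with 297 ± 17.7 FPKM in CELF6-OE and 252 ± 20.7 in Control (SD, n = 3) and SLC7A5 with 230.3 ± 15.9 FPKM in CELF6-OE and 192 ± 16.5 in Control (SD, n = 3), and by the glutamine carrier SLC1A5 with 136 ± 3.12 FPKM in CELF6-OE and 116 ± 11.2 in Control (SD, n = 3). SLC25A39, a carrier needed for glutathione import into mitochondria, had 114 ± 6.13 FPKM in CELF6-OE and 88.6 ± 8.17 in Control (SD, n = 3). The mitochondrial phosphate carrier SLC25A3 (89.8), the oxoglutarate carrier SLC25A11 (76.2), the zinc carriers SLC39A1 (64.4) and SLC39A7 (48.05) and the scaffold gene SLC9A3R1 (59.5) completed the 10 highest by mean FPKM over all libraries. Of these 10 genes, SLC25A39 was called higher and SLC9A3R1 lower in CELF6-OE, and the other 8 were not called.

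**Figure D1:**
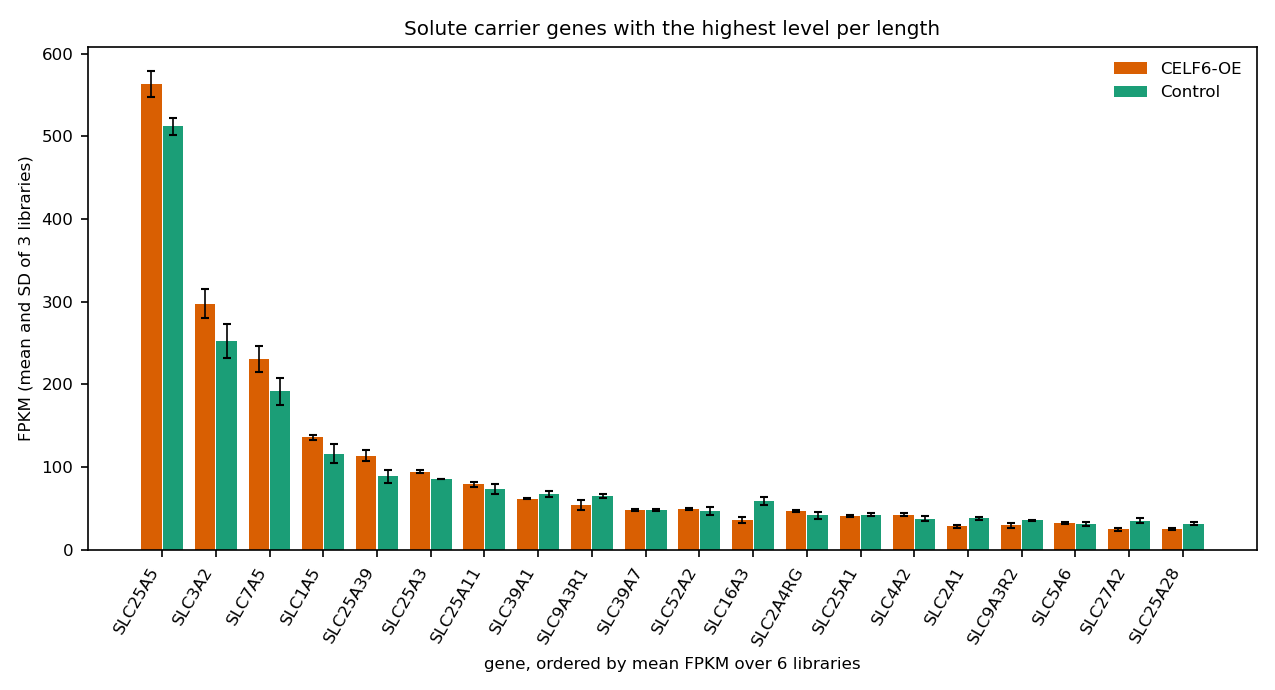
Mean FPKM of the 20 solute carrier genes with the highest level, in CELF6-OE (orange) and Control (green), with the SD of 3 libraries as error bars. SLC25A5 stands above the others in both groups, and SLC16A3, SLC2A1, SLC27A2, SLC25A28, SLC9A3R1 and SLC9A3R2 are among the genes with a shorter bar in CELF6-OE.

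To compare the groups, counts were scaled by edgeR's TMM method and are given as CPM, the counts of a gene scaled to a common library size. The test was edgeR's quasi-likelihood method, with p adjusted after Benjamini and Hochberg over all 15847 genes kept by the filter on low counts. All 161 members passed that filter, and a gene was called at an adjusted p under 0.05. Values of a group stand in the order of its replicate numbers, and parentheses hold the log2 fold change of CELF6-OE over Control ± SE. Coordinates are those of GRCh38.

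By this test, 9 solute carrier genes (5.59%) were higher and 29 (18%) were lower in CELF6-OE. Among all genes tested, 6.47% were called higher and 11.5% lower, and among the 10884 protein-coding genes with a mean count of at least 100 these shares were 7.57% and 12.8%. With a fold change of at least 1.5 in addition, 1 member (0.621%) was higher and 10 (6.21%) were lower, against 1.35% and 5.82% of all genes and 0.597% and 4.82% of the protein-coding genes with a mean count of at least 100. The groups did not overlap, with all 3 CELF6-OE libraries above all 3 Control libraries, in 26 members (16.1%) and the reverse in 48 members (29.8%), against 17.9% and 20% of all genes. The shares of members called higher therefore lay near those of all genes and the share called lower above them, but near them once the fold change was asked for, and these differences were not tested. Most differences were small, since 150 of the 161 members lay within 1.5-fold. In RNA of whole cultures, fewer cells with a transcript and less of it per cell cannot be told apart. The median log2 fold change was -0.0089, against 0.011 over all genes tested, and its sign turned with the scaling, being 0.0088 with upper quartile scaling and 0.03 with library size only. Library size alone also moved the calls to 13 higher and 25 lower, so that 34.2% of the called members were higher in place of 23.7%. Leaving out the 6 genes that are not transporters, 9 members were higher and 27 were lower.

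The libraries of the Control group differed among themselves more than those of the CELF6-OE group. The median range of a member's log2 CPM was 0.14 over the CELF6-OE libraries and 0.23 over the Control libraries, and the range was wider in Control for 109 of the 161 members. Control replicates 1 and 3 lay at the ends and replicate 2 between them in 117 members. All 9 calls of higher genes depended on which library was left out. Without CELF6-OE replicate 1, 2 or 3, the test called 1, 0 and 4 members higher, and without Control replicate 1, 2 or 3 it called 17, 0 and 17. The number of lower members was 20, 20 and 26 without CELF6-OE replicates 1 to 3 and 37, 20 and 32 without Control replicates 1 to 3. Among the lower genes, 19 of 29 were called in each of these 6 tests and under all 13 alternatives, and none of the 9 higher genes was. Below, the calls that hold in all 13 alternatives are described as steady, and for the others the libraries that they need are named. Counts of called members by family are to be read against the 11.5% lower and 6.47% higher of all genes tested. No family was tested as a set.

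**Figure D2:**
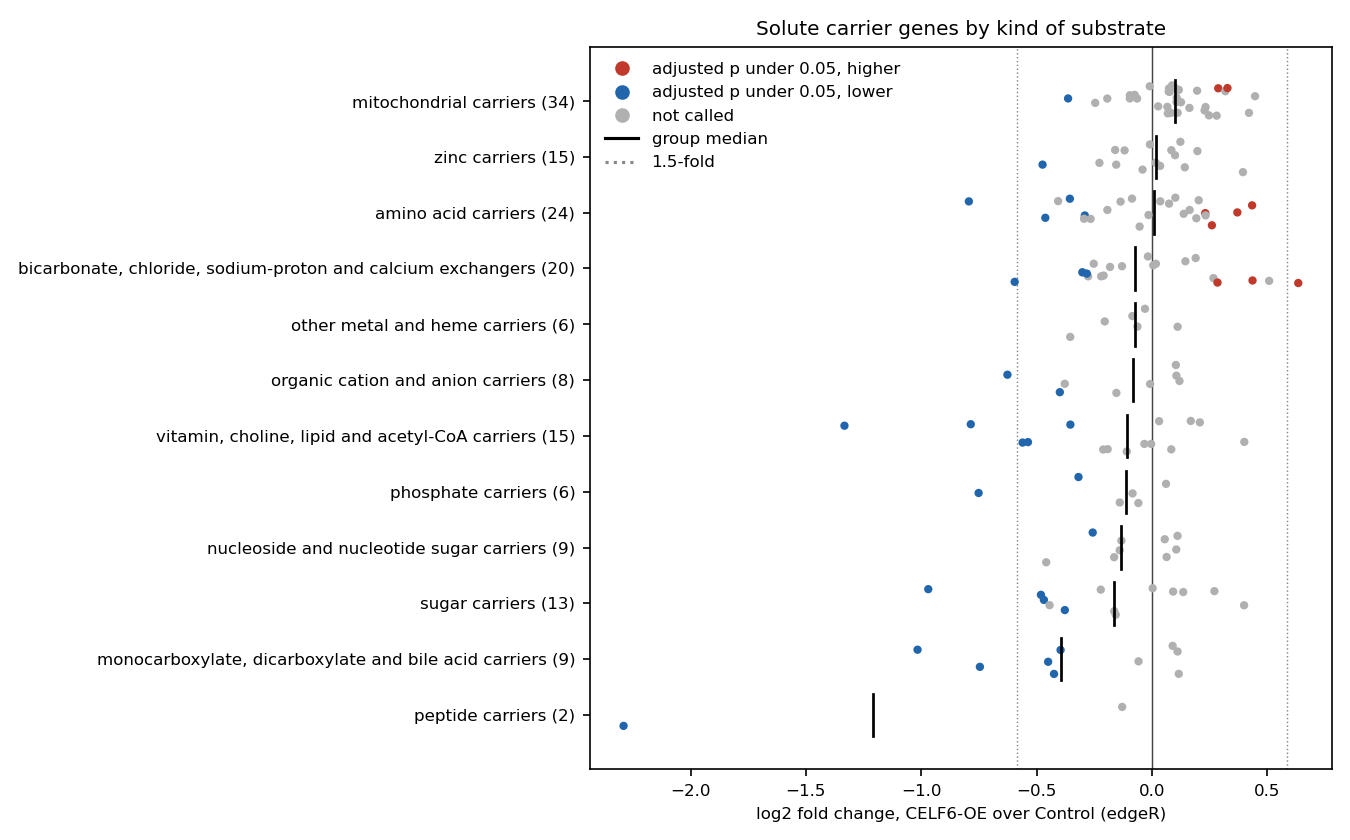
Log2 fold change of CELF6-OE over Control for each of the 161 solute carrier genes, in rows by kind of substrate with the number of genes in parentheses, red for genes called higher, blue for genes called lower and grey for the others, and a black line at the median of each row. Most points lie within the dotted lines of a 1.5-fold change, the monocarboxylate and vitamin rows hold 5 blue points each, and the row of mitochondrial carriers centres at 0.10.

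**Figure D3:**
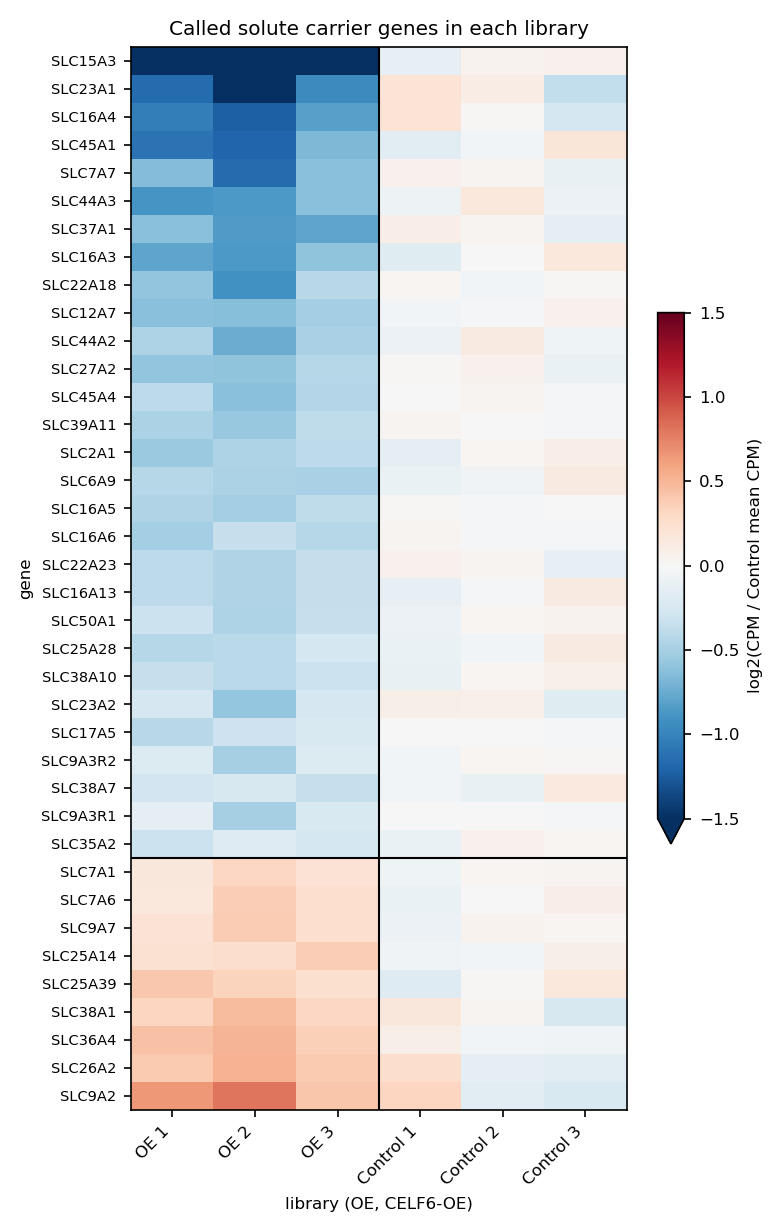
Heat map of the 38 called solute carrier genes (rows, ordered by log2 fold change) in the 6 libraries (columns), coloured by the log2 ratio of CPM to the Control mean, with values under -1.5 drawn at the end of the scale. The 3 CELF6-OE columns are blue in the upper 29 rows and red in the lower 9 rows, and SLC15A3 is the darkest row.

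The promoters of the members were read from RefSeq (GRCh38.p14), which gave, for 126 of the 161, 1 or more transcription starts with a window from 250 bases before to 50 bases after each. A gene was counted as holding a motif when any of its windows did. Both strands were searched for 3 motifs. The core of the interferon-stimulated response element, GAAANNGAAA, was present in 3 of the 126 (2.38%), against 4.38% of all 27305 genes with such a window and 4.1% of those that were tested. The GAS element, TTCNNNGAA, was present in 11 (8.73%), against 9.38% of all and 8.66% of tested genes, and the core of the amino acid response element, TGATGNAA, in 8 (6.35%), against 4.46% of all and 2.68% of tested genes. The 8 include SLC39A11, which was lower, and SLC38A1 and SLC7A1, which were higher in CELF6-OE, with a match that overlaps the start or follows it. Among called members with the whole match before the start, the stretches around it are shown here with the match in capitals, in the direction of the gene.
SLC7A7: gttttcctgtTTTCCATTTC
SLC37A1: gcgggccaggGAAAGTGAAAgggcggcggg
SLC38A1: ttgtttcaccTTCTATGAAgcttccgttc
The stretch of SLC7A7 lies at chr14:22819792-22819811 on the minus strand and holds the interferon-stimulated core on the opposite strand. That of SLC37A1 lies at chr21:42513801-42513830 on the plus strand and holds the same core, and that of SLC38A1 lies at chr12:46266683-46266711 on the minus strand and holds the GAS element. All 3 belong to RefSeq starts that lie inside the GENCODE span of their gene, downstream of its outermost start. The first 2 genes were lower and the third was higher in CELF6-OE, as given below. These matches are described as letters in the window, and binding there was not measured.

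The member with the largest difference was SLC15A3, a proton-coupled carrier of peptides and histidine in endolysosomes (ENSG00000110446, chr11:60937060-60952653, minus strand). It had 2.21, 1.74 and 4.01 CPM in CELF6-OE and 11.9, 13.4 and 13.6 CPM in Control. The groups were far apart, and its expression was 4.89-fold lower in CELF6-OE (log2 fold change -2.29 ± 0.22, SE, adjusted p = 6.26e-05). CELF6-OE replicate 3, the library with the fewest CELF6 counts, had the highest SLC15A3 value of its group. Whether the level of SLC15A3 or of any other member followed that of CELF6 within the group was not tested. The call was steady. Its relative in the same compartment, SLC15A4, had 23.8, 23.03 and 25.9 CPM in CELF6-OE and 26.5, 26.3 and 26.6 CPM in Control, a log2 fold change of -0.13 ± 0.08 that was not called (adjusted p = 0.261).

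Monocarboxylate carriers of the SLC16 family, some of which move lactate, pyruvate and ketone bodies, were lower in 5 of 7 members and higher in 0. The shares over all genes tested were 11.5% and 6.47%. In this family 1 member lay above 0, with a log2 fold change of 0.11, and was not called. The median log2 fold change of the family was -0.42 and stayed between -0.42 and -0.39 under the other scalings. SLC16A3, the exporter of lactate known as MCT4 (chr17:82217934-82261129, plus strand), had 186, 177 and 211 CPM in CELF6-OE and 282, 323 and 358 CPM in Control. No CELF6-OE library reached the lowest Control library, and the level was 1.68-fold lower (-0.75 ± 0.09, adjusted p = 0.000304). SLC16A4, a carrier of uncertain substrate (chr1:110362851-110391082, minus strand), showed 45.4, 39.7 and 52.8 CPM in CELF6-OE and 108, 94.1 and 77.2 CPM in Control. It was 2.02-fold lower in CELF6-OE (-1.02 ± 0.12, adjusted p = 0.000263). For SLC16A5 the values were 13.9, 13.3 and 14.6 CPM in CELF6-OE and 19.3, 18.9 and 18.98 CPM in Control, 1.37-fold lower (-0.45 ± 0.08, adjusted p = 0.00335). These 3 calls were steady. SLC16A6 (-0.42 ± 0.10, adjusted p = 0.0176) and SLC16A13 (-0.40 ± 0.11, adjusted p = 0.0308) passed the threshold less firmly. SLC16A6 was not called without CELF6-OE replicates 1 or 3 or Control replicate 2. SLC16A13 was called without Control replicate 1 and lost the call without any of the other 5 libraries, with a largest adjusted p of 0.116 over the 13 alternatives, against 0.0876 for SLC16A6. SLC16A1, the widespread lactate carrier MCT1, had 57.9, 60.7 and 57.7 CPM in CELF6-OE and 68.5, 62.5 and 52.5 CPM in Control. Its groups overlapped, with a log2 fold change of -0.058 ± 0.09 (adjusted p = 0.694). Both proteins MCT1 and MCT4 need the glycoprotein basigin at the cell surface, and its gene BSG had a log2 fold change of -0.22 ± 0.08 that was not called (adjusted p = 0.0736). The related SLC10A3 and SLC10A4, of the bile acid carrier family, had log2 fold changes of 0.09 ± 0.09 and 0.12 ± 0.14 and were not called.

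**Figure D4:**
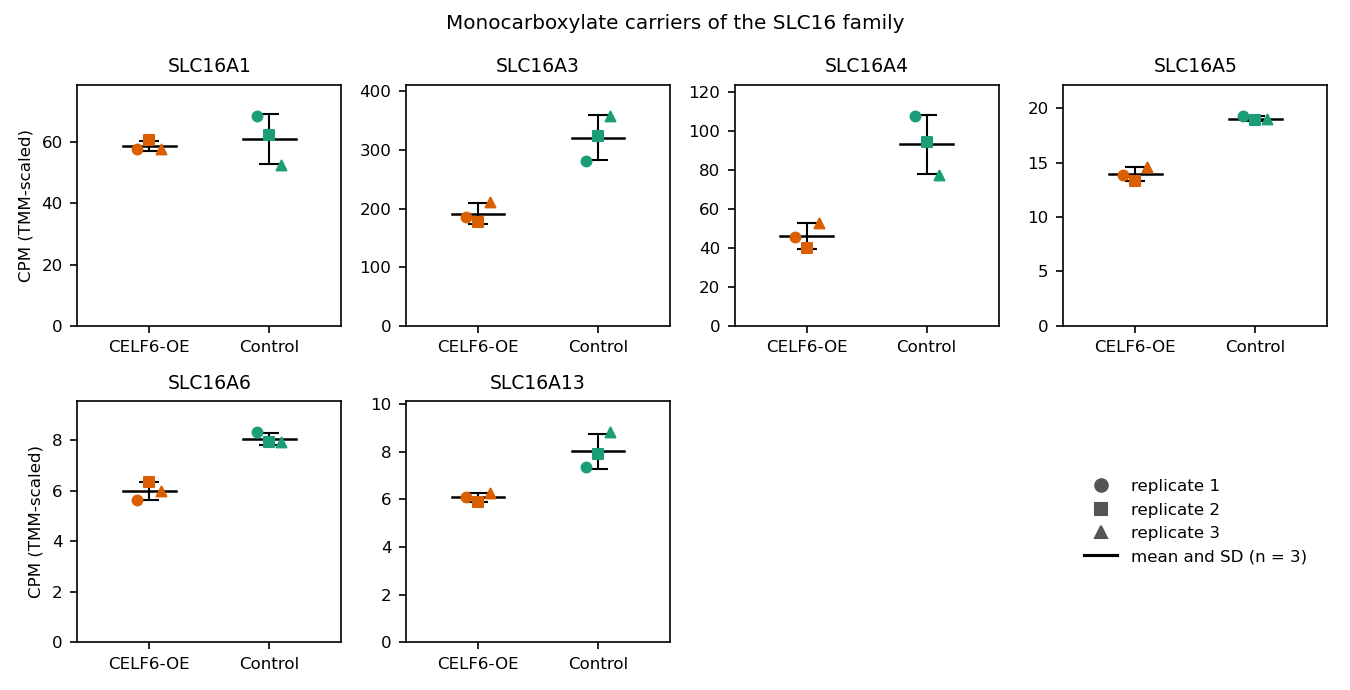
CPM of 6 SLC16 genes in each library, with CELF6-OE in orange, Control in green, 1 symbol per replicate number and the mean with SD as black lines, on axes that start at 0. In SLC16A3, SLC16A4, SLC16A5, SLC16A6 and SLC16A13 all CELF6-OE points lie under all Control points, and in SLC16A1 the groups overlap.

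Of the 13 genes in the sugar carrier families, 4 were lower and 0 were higher. SLC2A1, the basal glucose carrier GLUT1 (chr1:42925353-42958893, minus strand), had 99.8, 107 and 112 CPM in CELF6-OE and 134, 149.7 and 158 CPM in Control. All 3 CELF6-OE libraries lay under the Control libraries, and the level was 1.38-fold lower (-0.47 ± 0.07, adjusted p = 0.00157). SLC2A3, the carrier GLUT3 of high affinity, had 17.6, 17.3 and 25.8 CPM in CELF6-OE and 24.4, 29.9 and 28.1 CPM in Control. Here CELF6-OE replicate 3 lay above Control replicate 1, and the log2 fold change of -0.44 ± 0.14 missed the threshold (adjusted p = 0.0554), although 6 of the 13 alternatives called it, the tests without CELF6-OE replicate 3 and without Control replicate 1 among them. SLC45A1, a proton-coupled sugar carrier (chr1:8318114-8344167, plus strand), had 5.51, 5.19 and 7.43 CPM in CELF6-OE and 10.6, 11.5 and 13.4 CPM in Control, or 1.96-fold lower (-0.97 ± 0.15, adjusted p = 0.00113). SLC45A4 of the same family was also lower (-0.48 ± 0.09, adjusted p = 0.00363), whereas the third member, SLC45A3, was not called (0.27 ± 0.10, adjusted p = 0.0809). SLC50A1, a sugar carrier of the SWEET type, had 42.3, 38.7 and 41.7 CPM in CELF6-OE and 50.1, 54.4 and 54.9 CPM in Control, or 1.299-fold lower (-0.38 ± 0.07, adjusted p = 0.00404). All 4 calls were steady. TXNIP, whose protein promotes the uptake of GLUT1 from the cell surface, was lower too, with a log2 fold change of -0.98 ± 0.14 (adjusted p = 0.000822).

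The amino acid carrier families held 24 members, 4 of them higher and 4 lower. SLC7A7, whose promoter stretch is shown above, is the light chain of a carrier that exchanges cationic for neutral amino acids (chr14:22773222-22829820, minus strand). It had 37.03, 26.2 and 37.6 CPM in CELF6-OE and 60.7, 59.9 and 54.1 CPM in Control, with the lowest value in CELF6-OE replicate 2. At 1.73-fold lower, it showed the largest difference of its group (-0.79 ± 0.12, adjusted p = 0.00115). SLC38A10 had 82.5, 79.5 and 84.03 CPM in CELF6-OE and 97.3, 107 and 110.5 CPM in Control (-0.36 ± 0.07, adjusted p = 0.00421), and the glycine carrier SLC6A9 had 8.56, 8.28 and 8.2 CPM in CELF6-OE and 10.7, 11.1 and 12.7 CPM in Control (-0.46 ± 0.10, adjusted p = 0.00999). These 3 calls were steady, whereas SLC38A7, a glutamine carrier of lysosomes, just passed (-0.29 ± 0.09, adjusted p = 0.0473) and was called without Control replicate 1 but in none of the other 5 tests that left out a library, with an adjusted p of up to 0.141.

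In the opposite direction, SLC36A4, a carrier of proline and tryptophan (chr11:93144174-93197991, minus strand), had 13.6, 14.2 and 12.8 CPM in CELF6-OE and 10.7, 9.74 and 9.65 CPM in Control. It was 1.35-fold higher (0.43 ± 0.09, adjusted p = 0.00907), the smallest p of the higher members, and was not called without CELF6-OE replicate 2 or Control replicate 2, where its adjusted p reached 0.0605. SLC38A1, a sodium-coupled carrier of glutamine, had 102, 112 and 101 CPM in CELF6-OE and 91.2, 83.2 and 68.9 CPM in Control (0.37 ± 0.10, adjusted p = 0.0215). The lowest of these values belongs to Control replicate 3, and the call was lost without CELF6-OE replicates 1 or 2 or Control replicate 2. The carrier of arginine and lysine SLC7A1 had 56.7, 61.99 and 58.1 CPM in CELF6-OE and 47.95, 51.1 and 51.5 CPM in Control (0.23 ± 0.07, adjusted p = 0.0346), and SLC7A6, the light chain of another such exchanger, had 38.2, 44.1 and 40.7 CPM in CELF6-OE and 31.9, 33.9 and 36.8 CPM in Control (0.26 ± 0.08, adjusted p = 0.0463). When a CELF6-OE library or Control replicate 2 was left out, neither of them was called, nor was SLC7A6 without Control replicate 1, and the largest adjusted p was 0.105 for SLC38A1, 0.17 for SLC7A1 and 0.211 for SLC7A6. SLC7A6 shares 55.6% of its exonic bases with genes on the opposite strand, SLC7A6OS among them, which was not called (0.037 ± 0.08, adjusted p = 0.772), and the strand setting of the counting is not given in the sources used here. Of the other called genes, SLC27A2 shares 19.95% and SLC22A23 15.6% of their exonic bases with genes on the opposite strand.

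The most abundant amino acid carriers did not pass the test. SLC7A5 had 1072, 1166 and 1036 CPM in CELF6-OE and 828, 919 and 1038 CPM in Control (0.23 ± 0.09, adjusted p = 0.0838), and its heavy chain SLC3A2 had 830.3, 852 and 764 CPM in CELF6-OE and 631, 707 and 786 CPM in Control (0.20 ± 0.08, adjusted p = 0.116). In both genes Control replicate 3 overlapped with the CELF6-OE libraries. SLC1A5 had 463, 475 and 465 CPM in CELF6-OE and 354, 419.7 and 454 CPM in Control, with no overlap (0.19 ± 0.08, adjusted p = 0.135). Without Control replicate 3, the adjusted p was 0.0095 for SLC7A5, 0.0167 for SLC3A2 and 0.0215 for SLC1A5. None of these 3 genes was called when any other library was left out. Their largest adjusted p over the 13 alternatives was 0.299, 0.337 and 0.322. SLC38A2, which cells induce when amino acids are scarce, had 128, 135 and 134 CPM in CELF6-OE and 151, 136 and 114 CPM in Control and a log2 fold change of -0.014 ± 0.09 (adjusted p = 0.928). The taurine carrier SLC6A6 (-0.086 ± 0.06, adjusted p = 0.318) and the creatine carrier SLC6A8 (0.14 ± 0.13, adjusted p = 0.508) were not called either. Of 16 tested genes on a list of the amino acid response, which holds the transcription factor ATF4 and its targets outside the solute carriers, 6 were lower and 1, PSAT1, was higher, against 11.5% and 6.47% of all genes tested, and ATF4 itself was not called.

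**Figure D5:**
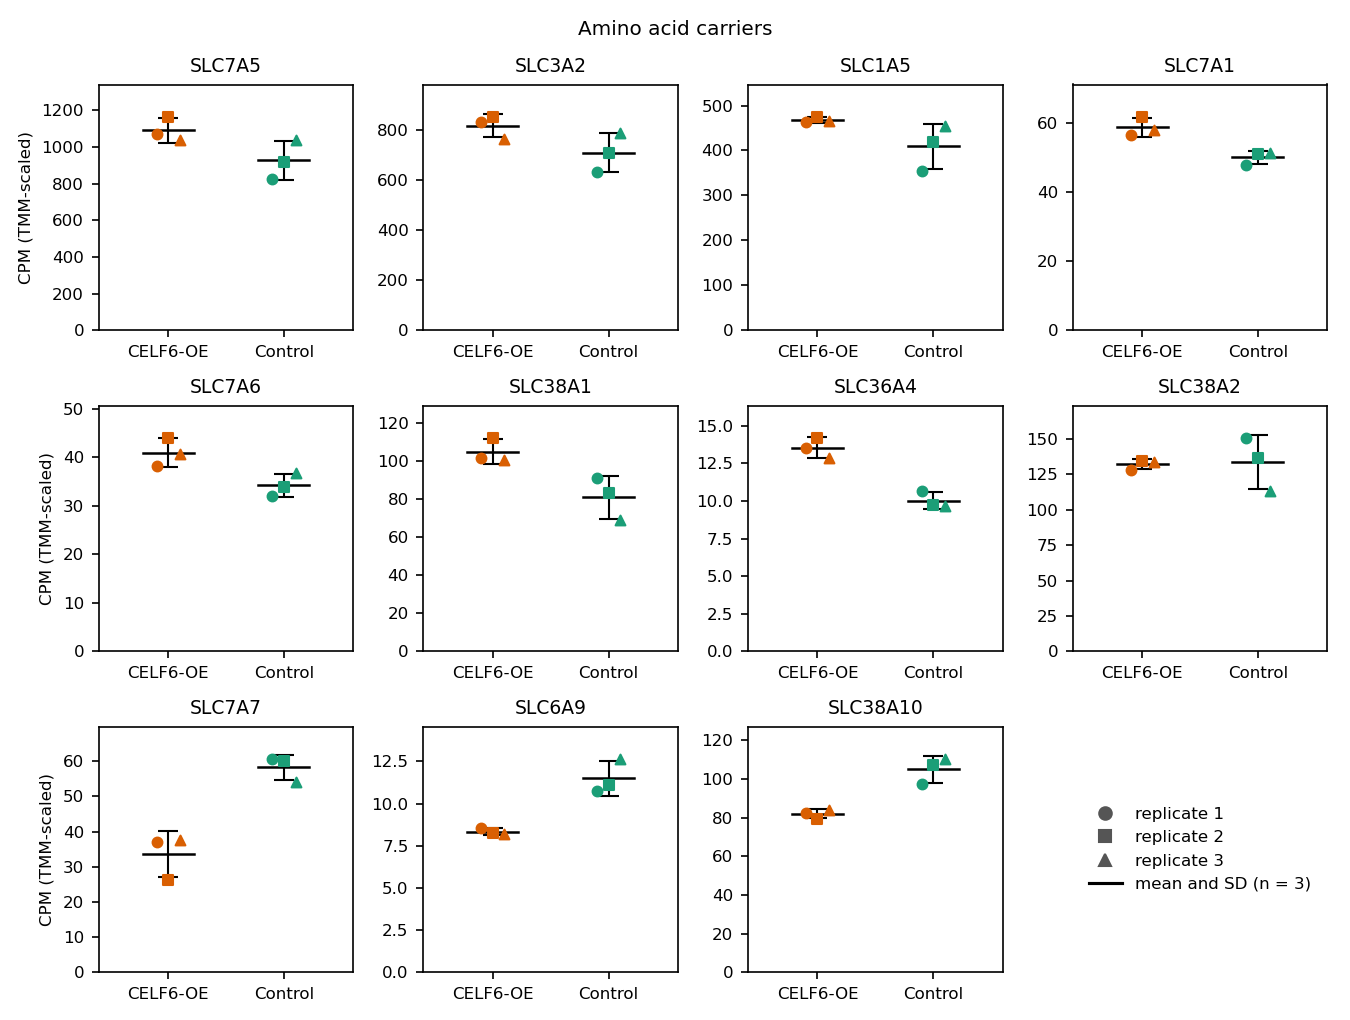
CPM of 11 amino acid carrier genes in each library, with CELF6-OE in orange, Control in green, 1 symbol per replicate number and the mean with SD as black lines, on axes that start at 0. SLC7A5 and SLC3A2 overlap between the groups at Control replicate 3, and SLC7A7, SLC6A9 and SLC38A10 lie lower in CELF6-OE without overlap.

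Carriers of vitamins, choline and lipids were lower in 5 of 15 members and higher in 0. SLC23A1, a sodium-coupled carrier of vitamin C (chr5:139367196-139384553, minus strand), had 3.27, 1.66 and 3.75 CPM in CELF6-OE and 8.37, 7.85 and 5.62 CPM in Control. It differed by the widest margin after SLC15A3, being 2.52-fold lower (-1.33 ± 0.25, adjusted p = 0.00385), and its values also spread widely inside each group. The other carrier of vitamin C, SLC23A2, had 39.8, 31.8 and 39.9 CPM in CELF6-OE and 50.4, 49.98 and 41.99 CPM in Control (-0.35 ± 0.10, adjusted p = 0.0356), and was not called without CELF6-OE replicates 1 or 2 or Control replicate 2, where the adjusted p reached 0.151. SLC27A2, which activates very long chain fatty acids and takes up fatty acids (chr15:50182196-50236385, plus strand), had 67.5, 66.8 and 75.4 CPM in CELF6-OE and 103, 106 and 94.9 CPM in Control, or 1.45-fold lower (-0.54 ± 0.07, adjusted p = 0.000514). SLC27A1, SLC27A4 and SLC27A5 were not called, with log2 fold changes from -0.21 to 0.21. In the SLC44 family of choline carriers, SLC44A2 (-0.56 ± 0.11, adjusted p = 0.00597) and SLC44A3 (-0.79 ± 0.15, adjusted p = 0.00436) were lower, and SLC44A1, at 23.2, 24.3 and 23.8 CPM in CELF6-OE and 32.2, 26.01 and 23.2 CPM in Control, was not called (-0.19 ± 0.11, adjusted p = 0.248). SLC44A3 is the weaker expressed of the 2 called genes, at 2.13, 2.15 and 2.55 CPM in CELF6-OE and 3.73, 4.36 and 3.67 CPM in Control. The folate carriers SLC19A1 (0.085 ± 0.08, adjusted p = 0.495) and SLC46A1 (0.17 ± 0.09, adjusted p = 0.23) were not called. The calls of SLC23A1, SLC27A2, SLC44A2 and SLC44A3 were steady.

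Among 20 genes of the families that exchange bicarbonate, chloride, sodium, protons and calcium, 3 were higher and 3 lower. The lower genes were SLC12A7 and the scaffold genes SLC9A3R1 and SLC9A3R2, which are described below. The 20 also include SLC4A1AP, which is not a transporter either. SLC12A7, a potassium-chloride cotransporter (chr5:1050384-1112063, minus strand), had 29.6, 29.3 and 32.1 CPM in CELF6-OE and 44.7, 44.97 and 47.8 CPM in Control. The libraries of each group lay close together, and the level was 1.51-fold lower (-0.59 ± 0.07, adjusted p = 0.000217), with a steady call. The sodium-potassium-chloride cotransporter SLC12A2 had 21.4, 16.5 and 20.3 CPM in CELF6-OE and 21.7, 15.8 and 10.9 CPM in Control and was not called (0.27 ± 0.20, adjusted p = 0.377). SLC9A2, a sodium-proton exchanger, was the member with the largest rise and the only one called higher with a fold change of at least 1.5. It had 4.71, 5.25 and 4.01 CPM in CELF6-OE and 3.75, 2.69 and 2.55 CPM in Control, or 1.55-fold higher (0.64 ± 0.17, adjusted p = 0.0283), with Control replicate 1 next to the CELF6-OE libraries. SLC26A2, a sulfate carrier, had 16.6, 18.2 and 16.7 CPM in CELF6-OE and 15.2, 11.5 and 11.3 CPM in Control (0.44 ± 0.12, adjusted p = 0.027), and the exchanger SLC9A7 of the trans-Golgi network had 18.4, 20.8 and 18.9 CPM in CELF6-OE and 15.01, 16.5 and 16.2 CPM in Control (0.28 ± 0.09, adjusted p = 0.0426). SLC9A2 was called in 3 of the 6 tests that left out a library, SLC26A2 in 2 and SLC9A7 in 1, none of the 3 without CELF6-OE replicates 1 or 2 or Control replicate 2, SLC26A2 and SLC9A7 also not without CELF6-OE replicate 3 and SLC9A7 also not without Control replicate 1, and the largest adjusted p was 0.122, 0.131 and 0.192. The bicarbonate carrier SLC4A7 had 12.2, 13.9 and 10.7 CPM in CELF6-OE and 11.2, 8.04 and 6.58 CPM in Control and missed the threshold (0.51 ± 0.17, adjusted p = 0.0649).

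The scaffold genes SLC9A3R1, with 122, 95.7 and 116 CPM in CELF6-OE and 136, 136 and 134 CPM in Control, and SLC9A3R2, with 77.6, 63.3 and 77.5 CPM in CELF6-OE and 87.1, 91.3 and 90.7 CPM in Control, were lower in CELF6-OE (-0.28 ± 0.08, adjusted p = 0.0392, and -0.30 ± 0.08, adjusted p = 0.0276). Replicate 2 was the lowest CELF6-OE library in both, and without it or without Control replicate 2 neither was called, nor was SLC9A3R1 without CELF6-OE replicate 3 or SLC9A3R2 without CELF6-OE replicate 1, with a largest adjusted p of 0.138 and 0.119. SLC2A4RG (0.14 ± 0.08, adjusted p = 0.29), SLC4A1AP (0.018 ± 0.07, adjusted p = 0.888) and SLC22A18AS (0.12 ± 0.18, adjusted p = 0.674) were not called.

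Mitochondrial carriers of the SLC25 family were the largest group, with 34 members that held 37.6% of the summed FPKM. Their log2 fold changes ran from -0.36 to 0.45 and were above 0 in 26 members, with a median of 0.10 that lay between 0.10 and 0.14 under the other scalings. The value of 0.14 came with library size only, which also moved the median over all genes tested, from 0.011 to 0.049. Few of the 34 members passed the test, 2 higher and 1 lower. SLC25A39 (chr17:44319625-44324870, minus strand) had 204, 194 and 182 CPM in CELF6-OE and 135, 156 and 171 CPM in Control, or 1.25-fold higher (0.33 ± 0.09, adjusted p = 0.0243). SLC25A14, a member of the uncoupling protein branch, had 16.3, 16.7 and 18.03 CPM in CELF6-OE and 13.4, 13.5 and 14.9 CPM in Control (0.29 ± 0.09, adjusted p = 0.0446). Neither was called without CELF6-OE replicates 1 or 2 or Control replicate 2, nor was SLC25A14 without CELF6-OE replicate 3 or Control replicate 1, and the largest adjusted p was 0.105 and 0.182. SLC25A28, which imports iron into mitochondria and is known as mitoferrin-2, was the lower one, with 35.8, 36.5 and 40.1 CPM in CELF6-OE and 44.95, 46.8 and 52.8 CPM in Control (-0.36 ± 0.08, adjusted p = 0.0109). It was not called without CELF6-OE replicate 1 or 2, where the adjusted p reached 0.0656. The other mitoferrin, SLC25A37, had 41.2, 44.9 and 39.8 CPM in CELF6-OE and 35.3, 39.7 and 41.6 CPM in Control and was not called (0.11 ± 0.08, adjusted p = 0.369). Among the ADP/ATP carriers, SLC25A5 had 768, 712 and 743 CPM in CELF6-OE and 651, 701 and 712 CPM in Control, without overlap but not called (0.11 ± 0.06, adjusted p = 0.271), and SLC25A4 was not called (0.10 ± 0.08, adjusted p = 0.424). The phosphate carrier SLC25A3 (0.12 ± 0.06, adjusted p = 0.202) and the aspartate-glutamate carrier SLC25A13 (0.11 ± 0.07, adjusted p = 0.283) were not called.

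The 6 members of the phosphate carrier families held 2 lower genes. SLC37A1, which exchanges phosphate for glucose 6-phosphate at the endoplasmic reticulum (chr21:42496008-42581440, plus strand), had 5.57, 4.78 and 4.97 CPM in CELF6-OE and 9.18, 8.82 and 7.79 CPM in Control, or 1.68-fold lower (-0.75 ± 0.12, adjusted p = 0.00132), and its call was steady. SLC17A5, which exports sialic acid from lysosomes, had 13.01, 13.9 and 14.8 CPM in CELF6-OE and 17.4, 17.4 and 17.2 CPM in Control (-0.32 ± 0.08, adjusted p = 0.0258), and was not called without CELF6-OE replicates 1 or 2 or Control replicate 2, where the adjusted p reached 0.126. The phosphate importer SLC20A1 was not called (0.062 ± 0.06, adjusted p = 0.514).

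Of 8 genes in the organic ion carrier families, 2 were lower. SLC22A18 (chr11:2899721-2925246, plus strand) had 13.96, 11.2 and 15.8 CPM in CELF6-OE and 21.4, 20.4 and 21.3 CPM in Control, or 1.54-fold lower (-0.63 ± 0.11, adjusted p = 0.00369), with a steady call. SLC22A23 had 9.45, 9.11 and 9.72 CPM in CELF6-OE and 13.04, 12.8 and 11.4 CPM in Control (-0.40 ± 0.10, adjusted p = 0.0164), and lost its call without CELF6-OE replicates 1 or 2 or Control replicate 2, up to an adjusted p of 0.0942. The carnitine carrier SLC22A5 had a log2 fold change of -0.0074 ± 0.08 (adjusted p = 0.956).

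Zinc carriers were lower in 1 of 15 members, SLC39A11 (chr17:72645949-73092712, minus strand), which had 21.8, 20.5 and 23.3 CPM in CELF6-OE and 31.2, 30.1 and 29.7 CPM in Control. The groups were clearly apart, the level was 1.39-fold lower (-0.47 ± 0.08, adjusted p = 0.00167), and the call was steady. The zinc exporter SLC30A1 had 47.6, 47.03 and 53.6 CPM in CELF6-OE and 68.1, 56.8 and 48.5 CPM in Control, and its Control libraries spread from 48.5 to 68.1 (-0.23 ± 0.11, adjusted p = 0.178). The importers SLC39A8 (-0.12 ± 0.10, adjusted p = 0.438) and SLC39A10 (0.40 ± 0.17, adjusted p = 0.121) were not called, nor was the Golgi carrier SLC30A5 (0.20 ± 0.09, adjusted p = 0.152). Without Control replicate 1, SLC39A10 and SLC30A5 passed the test (adjusted p = 0.000968 and 0.00952), and without Control replicate 3 SLC30A1 did (adjusted p = 0.0135). None of the 6 genes for copper, magnesium and heme carriers was called, the copper importer SLC31A1 among them (0.11 ± 0.07, adjusted p = 0.282).

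The carriers of nucleosides and of nucleotide sugars, which feed the Golgi apparatus, held 1 lower gene among 9. SLC35A2, the carrier of UDP-galactose, had 45.96, 50.4 and 47.9 CPM in CELF6-OE and 53.6, 59.98 and 58.7 CPM in Control (-0.26 ± 0.07, adjusted p = 0.0291), and was called without Control replicate 1 or 3 but not without any of the other 4 libraries, with an adjusted p of up to 0.162. The carrier of CMP-sialic acid SLC35A1 (0.11 ± 0.11, adjusted p = 0.555) and the nucleoside carrier SLC29A1 (0.11 ± 0.08, adjusted p = 0.372) were not called. SLC35A1 shares 55.5% of its exonic bases with another annotated gene on the same strand, and SLC39A1 shares 60.8%, so their counts are uncertain.

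The called members lay on many chromosomes. On chromosome 17, 7 of 16 members were lower (SLC16A3, SLC16A5, SLC16A6, SLC16A13, SLC38A10, SLC39A11 and SLC9A3R1) and 1 was higher (SLC25A39), where 15.8% of all tested genes of the chromosome were lower and 6.76% higher. This chromosome was singled out after the values had been seen.

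Other genes of membrane transport were counted beside them, and the shares to read the counts against are the 11.5% lower and 6.47% higher of all genes tested. Of 22 solute carrier genes outside the symbol pattern, from the SLCO family and the branches SLC35B to SLC35G, 5 were lower and 2 higher. SLCO3A1 (-0.48 ± 0.08, adjusted p = 0.00202) and SLC35F6 (-0.34 ± 0.07, adjusted p = 0.00556) were among the lower, and SLC35F2 (0.31 ± 0.07, adjusted p = 0.0143) and SLC35G1 (0.37 ± 0.09, adjusted p = 0.0182) were the higher ones. SLC35F2 was not called without CELF6-OE replicates 1 or 2 or Control replicate 2, and SLC35G1 was not called when any 1 of the CELF6-OE libraries or Control replicate 2 was left out. ABC transporters, which are driven by ATP, were lower in 5 of 23 and higher in 0, with the drug exporters ABCC1 (-0.33 ± 0.06, adjusted p = 0.00532) and ABCC3 (-0.57 ± 0.08, adjusted p = 0.000585) among them. Of 9 tested genes for the sodium-potassium ATPase and its regulators, which maintain the sodium gradient that many carriers use, 2 were lower. They were ATP1B1, with a mean FPKM of 61.2 in CELF6-OE and 90.2 in Control (-0.58 ± 0.11, adjusted p = 0.00499), and FXYD3, with raw counts of 24, 31 and 28 in the Control libraries but 1, 3 and 4 after CELF6 transfection. FXYD3 passed the filter on low counts only through the group where it is high, so its call is no support for the count. Of 20 tested partners and regulators of solute carriers, 3 were lower, namely TXNIP, SGK1 (-0.26 ± 0.08, adjusted p = 0.0491) and TMEM27 (-1.11 ± 0.22, adjusted p = 0.00583). SGK1 was called in 2 of the 13 alternatives.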

How the data were processed

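RNA-seq of 3 CELF6-OE and 3 Control libraries of A549 cells was used. Reads had been trimmed by the authors (FASTX-Toolkit) and mapped with TopHat2 to GRCh38, and uniquely mapped reads were kept. How they were counted, on which strand and with which annotation is not given in the sources used here. The authors deposited raw read counts and FPKM values. No column was left out. Total counts were 33748328 to 37920700 per library. Duplicate libraries were looked for and not found (chi-square per degree of freedom between pairs of a group 7.67 to 29.3).

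The TMM method of edgeR 4.0.16 under R 4.3.3 scaled the counts. Genes kept by filterByExpr (minimum count 10, 15847 of 29889) entered the quasi-likelihood test of edgeR, with adjusted p after Benjamini and Hochberg over all of them, with a prior count of 0.125 for log2 fold changes. SE, the standard error of the log2 fold change, was derived from the test. It is the test's absolute log2 fold change divided by the square root of its F statistic. The study's methods also used edgeR and a fold change of 1.5. Infinite prior degrees of freedom arose without the filter and 7.15 with it, so the filtered test was used. The alternatives were no filter, RLE, upper quartile and library size scaling, DESeq2 1.42.0, limma-voom (limma 3.58.1), the replicate number as a block, and each library left out in turn, 13 in all. For the numbers of called members a minimum mean count of 500 was a further one. The procedure was tested on simulated counts. FPKM served to describe the levels of genes and of marker lists, also by group, and entered no test.

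Coordinates and exon overlaps were taken from GENCODE release 44 on GRCh38, in which all 161 members were found, and promoters from RefSeq. Members, families, lists of other genes and the named genes were chosen with earlier results of these data known. Named genes were the called members with the smallest p, up to 10 higher and 15 lower (9 were higher), the 10 highest by FPKM, 38 symbols listed by name (34 of them members), the smallest p of each family with at least 5 members, the genes nearest the minimum and members that are no transporters, 62 members in all. Further members were named to complete families after their values had been seen. The values of 3 genes are not reported here.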

Additional observations from a re-analysis of the deposited data

How the results depend on the processing

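Upper quartile scaling and library size only moved the median log2 fold change of the members from -0.0089 to 0.0088 and 0.03. Leaving out 1 library moved it between -0.0337 and -0.00604. The number of higher members was 9 with edgeR's test, 14 with no filter on low counts, and 0 to 17 when 1 library was left out. That of lower members was 29, with 20 to 37 when 1 library was left out, and 19 with a minimum mean count of 500, where fewer genes enter by construction. With a fold change of at least 1.5, 0 to 4 higher members were called when 1 library was left out, against 1, and 8 to 14 lower ones, against 10. DESeq2 and limma-voom each called 11 higher and 31 lower. Of the 62 named members, 13 lost and 12 gained a call under some of the 13 alternatives, and none of them reversed. The cause was not tested. With 3 libraries per group, the spread between libraries limits the precision.

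The replicate numbers were not used as pairs in the main test. The deviations of same-numbered libraries from their group means had correlations of -0.0555, -0.0461 and -0.099. Those of differently numbered libraries lay between -0.0158 and 0.0695. Such correlations cannot decide whether libraries of the same number were prepared together. With the replicate number as a block, 9 members were higher and 27 lower, 1 and 10 with a fold change of at least 1.5, and the median log2 fold change was -0.0077.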

Other observations

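Solute carrier genes under the minimum mean count of 100 were tested as well. Of these 136 genes, 86 had a mean count under 10 and 48 passed the filter on low counts, which asks for the count in 3 libraries only, so that a gene could pass through the group where it was high. In edgeR's quasi-likelihood test with adjustment over all genes tested, 10 of the 48 were lower and 3 higher in CELF6-OE, against 11.5% and 6.47% of all genes tested, and because of the filter these counts are a description only. The gene with the smallest p was SLC2A12, a glucose carrier related to SLC2A1, with 149, 133 and 127 counts in Control but 38, 44 and 55 in CELF6-OE (log2 fold change -1.501 ± 0.18, SE, adjusted p = 0.000206). Its groups did not overlap, and it was called without any 1 of the 6 libraries. The sodium-calcium exchanger SLC8A2 (-1.33 ± 0.26, adjusted p = 0.0052) was called in all 6 such tests too.

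The higher genes were SLC16A7, SLC4A8 and SLC25A51. SLC16A7, a pyruvate carrier of the monocarboxylate family, had 42, 37 and 20 counts in Control but 63, 68 and 51 in CELF6-OE (0.95 ± 0.25, adjusted p = 0.0255), against the direction of the 5 called members of that family. It was called in 3 of the 6 tests that left out a library. These genes were singled out after their values had been seen.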
